A study of Rattus norvegicus with 20 samples.

Results

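The proteasome subunit genes encode the protein parts of the machine that degrades ubiquitin-tagged proteins. They were taken as the protein-coding rows whose symbols run Psma, Psmb, Psmc or Psmd with a number, or Psme with a number from 1 to 4, which gave 42 of the 32495 named gene rows. Their RNA was measured by RNA sequencing of gastrocnemius, a hindlimb muscle, from female Fischer 344 rats that all carried the Ward colon tumour, a transplanted rat colorectal carcinoma left to grow for 2 weeks. TUMOUR STD rats ate the standard diet and received no chemotherapy (5 libraries). CHEMO STD rats ate the same diet and received 2 cycles of irinotecan (CPT-11), a topoisomerase poison, followed a day later by 50 mg/kg of 5-fluorouracil (5-FU), which blocks thymidylate synthesis (7 libraries). CHEMO FO rats received the same drugs and were switched when chemotherapy began to a diet containing fish oil, which differed in its content of the n-3 fatty acids EPA and DHA (8 libraries). Muscle of the treated rats was taken 7 days after the last cycle. No tumour-free group was analysed here, so each comparison is between tumour-bearing rats.

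The 20S core of the proteasome is a barrel of alpha rings, which gate the entrance, and beta rings, which hold the catalytic sites. The 19S cap recognises ubiquitin chains, unfolds the substrate with a ring of ATPases and feeds it into the core, and the 11S and PA200 activators open the core without the cap. Under interferon, cells replace the constitutive catalytic subunits Psmb5, Psmb6 and Psmb7 with the immunoproteasome subunits Psmb8, Psmb9 and Psmb10. In wasting muscle this system, with the ubiquitin ligases Trim63 (MuRF1) and Fbxo32 (atrogin-1), is a main route of myofibrillar protein breakdown.

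Libraries held between 3020821 and 10857477 counts on named genes. CHEMO STD replicates 1 and 2 (replicate numbers are those of the labels) differed from each other far less than any other pair within a group, with a chi-square of 2.23 per gene against 13.7 to 254 in the other 58 pairs, and were summed and counted as 1 sample, leaving 6 in that group and 19 in all. Some libraries stood apart. TUMOUR STD replicate 10 had a summed level of the 7 keratinocyte markers of 480 CPM (the count per unit of TMM-scaled library size), CHEMO FO replicate 16 had 106, and the other 17 samples had at most 8.07. CHEMO STD replicate 7 had the pan-leukocyte gene Ptprc at 65.9 CPM, and CHEMO FO replicate 18 differed from its group in most proteasome genes, as described further on. The muscle fibre markers found in the table, 7 of the 10 listed, summed to between 121730 and 235837 CPM, and the lowest sum was that of CHEMO FO replicate 18. In whole muscle, a change in the cells that make up the tissue and a change in RNA per cell cannot be told apart.

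Of the 42 genes, 40 passed the filter on low counts and were tested among 11716 genes. Psma8, the alpha subunit of testis proteasomes, had 2 counts in 1 of the 19 samples, and Psmb11, the catalytic subunit of thymus proteasomes, had 4 counts in 2 samples. In the other samples these tissue-restricted genes were not detectable at this depth. The alpha subunit Psma3 was not among the rows that matched the rule. A row named Psma3l, a symbol that RefSeq lists as a synonym of Psma3, held 43.3 to 176 CPM and is given as a neighbour, not as a member. Together the 42 genes took 0.328% to 0.428% of the counts in 19 of the 20 libraries and 0.863% in CHEMO FO replicate 18.

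Promoter sequences are shown for 3 genes whose levels differed in pattern between samples: Psme4, which encodes the PA200 activator, Psmb5, a constitutive catalytic subunit, and Psmb10, an immunoproteasome subunit. Each is the 250 bases before the annotated start in RefSeq, assembly GRCr8, read 5′ to 3′ on the strand of the gene. Capitals mark TGACNNNGC, the core letters of the antioxidant response element that NRF1 and NRF2 can bind, or GAAA followed by any 2 bases and GAAA, the core of the interferon-stimulated response element.
Psme4 (chr14:108706393-108706642, plus strand): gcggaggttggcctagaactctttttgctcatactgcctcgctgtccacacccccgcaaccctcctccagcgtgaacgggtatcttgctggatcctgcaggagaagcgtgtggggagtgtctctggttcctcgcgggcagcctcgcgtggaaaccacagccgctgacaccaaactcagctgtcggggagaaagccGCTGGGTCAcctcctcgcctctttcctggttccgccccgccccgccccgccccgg
Psmb5 (chr15:32047380-32047629, minus strand): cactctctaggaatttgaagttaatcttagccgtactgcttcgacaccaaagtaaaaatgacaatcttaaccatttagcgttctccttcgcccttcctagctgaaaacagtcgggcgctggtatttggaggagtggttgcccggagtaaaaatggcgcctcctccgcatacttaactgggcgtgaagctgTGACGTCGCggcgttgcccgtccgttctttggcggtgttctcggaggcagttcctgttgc
Psmb10 (chr19:50743293-50743542, minus strand): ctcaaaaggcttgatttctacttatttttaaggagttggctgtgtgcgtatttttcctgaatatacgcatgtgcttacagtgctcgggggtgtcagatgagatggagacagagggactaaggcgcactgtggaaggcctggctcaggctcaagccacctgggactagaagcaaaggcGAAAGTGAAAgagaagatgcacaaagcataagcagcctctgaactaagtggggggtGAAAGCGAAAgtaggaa

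The match in Psmb5 began 60 bases before the start on the gene's own strand, and that in Psme4 began 55 bases before it on the opposite strand. Psmb10 held the interferon-response letters in 2 places, 73 and 17 bases before the start. Searched on both strands over the same window, TGACNNNGC was found in 6 of the 37 member promoters that matched the RefSeq table (16.2%), against 10.1% of all 33469 promoters. CCAAT, the letters bound by NF-Y, was found in 17 (45.9%, against 34.0%), and the interferon-response letters in 5 (13.5%, against 3.41%). The 6 with TGACNNNGC were Psmb2, Psmb5, Psmb6, Psmd1, Psmd9 and Psme4, and the 5 with the interferon-response letters were Psma4, Psmb3, Psmb10, Psmd7 and Psme2. A match describes the letters in the window and is no sign of binding.

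**Figure D1:**
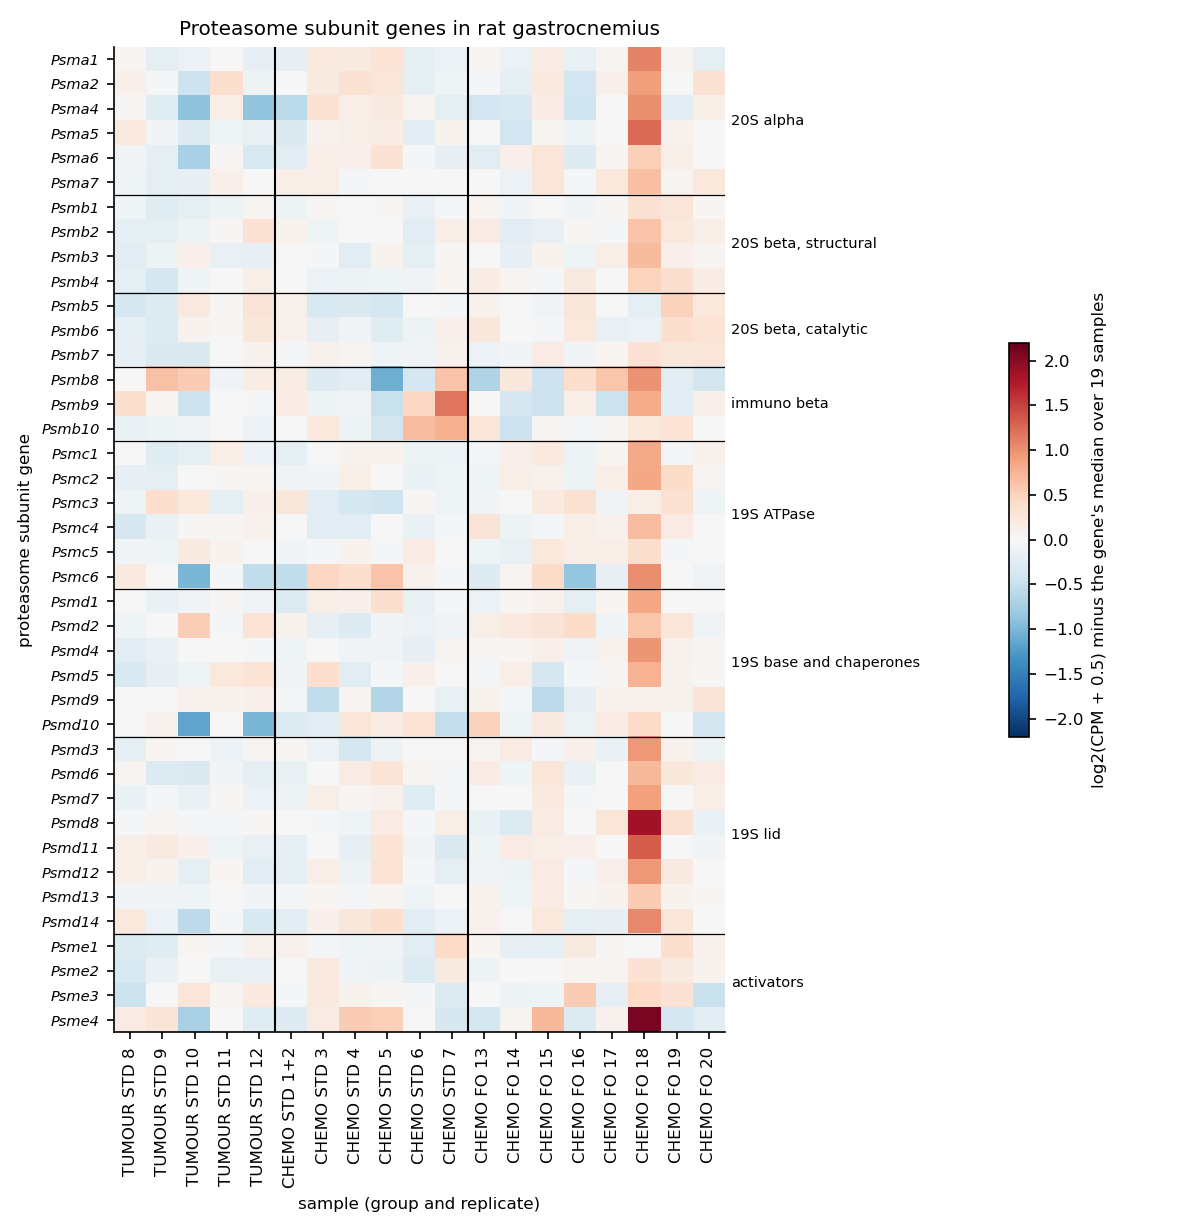
Heat map of the 40 tested proteasome subunit genes (rows, grouped by place in the complex) in the 19 samples (columns, by group and replicate). Colour gives log2(CPM + 0.5) minus the gene's median over the 19 samples, red above and blue below. The column of CHEMO FO replicate 18 is red in most rows, and it was the highest sample for 31 of the 40 genes.

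The chemotherapy effect was examined by comparing CHEMO STD with TUMOUR STD. Under edgeR's quasi-likelihood test, 29 of the 40 (72.5%) were higher after chemotherapy and 11 lower, where 49.7% of all genes tested were higher. The median log2 fold change of the members was 0.05 against -0.00 over all genes tested. None had an unadjusted p value below 0.05, where 6.50% of all genes did, 2.67% higher and 3.83% lower. None passed that threshold with DESeq2 either, where 6.85% of all genes did, and 1 did with limma voom, against 9.03% of all genes. None reached the 1.5-fold change that the study combined with it, a rule that 2.38% of all genes passed. The smallest adjusted p value of a member was 0.72, and no gene of the whole table passed at 0.05. In the same comparison all 3 smooth muscle markers tested were lower and past the unadjusted threshold, all 6 tendon markers were lower with 2 past it, and 9 of the 11 leukocyte markers tested were higher with 3 past it. The sum of the 20 listed leukocyte markers was 206 to 471 CPM in CHEMO STD, highest in replicate 7, and 165 to 310 in TUMOUR STD. The part of these cell types in the proteasome values was not tested. All p values measure the spread between samples, and the sources used here do not give the housing or litters of the rats.

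Within the core, all 6 alpha subunits were higher, by a median of 0.13 on the log2 scale, with Psma6 at 0.27 ± 0.16 (SE; exact two-sided permutation p = 0.102). The 4 structural beta subunits lay between 0.02 and 0.07. Psmb5 and Psmb6, the constitutive chymotrypsin-like and caspase-like sites, stood at -0.14 ± 0.15 and -0.04 ± 0.13, and Psmb7, the trypsin-like site, at 0.15 ± 0.12. In the cap, the 19S ATPases centred on 0.00, but they ran from -0.22 for Psmc3 to 0.41 ± 0.27 for Psmc6. The scaffold subunit Psmd2, which docks ubiquitin-like shuttle proteins, stood at -0.26 ± 0.14 and the lid subunit Psmd6 at 0.22 ± 0.14, each with an exact permutation p = 0.0584. None of these differences passed the fitted test, but without CHEMO FO replicate 18, which enters the shared estimate of the spread, Psmd2 did, at -0.26 ± 0.12.

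The level of Psmd2 in the 5 TUMOUR STD samples was 282, 300, 436, 291 and 368 CPM (replicates 8 to 12 in order), and in CHEMO STD it ran from 248 to 317 with a median of 278. The TUMOUR STD values reached higher, through replicates 10 and 12, and the groups overlapped. Psmc6 was at 93.1, 80.0, 39.7, 78.5 and 54.8 CPM in the same 5 samples and at 54.5 to 123, with a median of 94.0, in CHEMO STD. The lowest Psmc6 values of the TUMOUR STD group were thus in the replicates with the highest Psmd2. Psmd9, an assembly chaperone of the cap, was at 12.5 to 13.7 CPM in TUMOUR STD and 7.95 to 13.0 in CHEMO STD, which overlapped between 12.5 and 13.0 (difference of mean log2 CPM -0.29, exact two-sided permutation p = 0.0498, fitted adjusted p = 0.728).

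The diet effect was examined by comparing CHEMO FO with CHEMO STD. Most subunit genes had a slightly higher fitted level in the fish oil group, and the shift was smaller without CHEMO FO replicate 18. Of the 40 genes, 37 were higher (92.5%, against 48.7% of all genes) and 3 lower. The median log2 fold change was 0.18 against -0.01 over all genes. For scale, the median log2 level of the members varied between samples of a group with a pooled SD of 0.21, replicate 18 included. Without CHEMO FO replicate 18 the median was 0.06, with 28 of the 39 genes then tested higher, and with voom, which weights samples by their quality, it was also 0.06, with 27 of 40 higher. An unadjusted p value below 0.05 was found for 3 genes, all higher, against 4.51% of all genes in either direction, 2.45% higher and 2.06% lower. They were Psmd2, Psmc4 and Psmb4. With DESeq2 4 passed, against 4.68% of all genes, and with voom 7, of which 6 were higher, against 11.4% of all genes. None reached 1.5-fold, where 1.66% of all genes passed the rule of p and fold, and their adjusted p values were 0.97 by edgeR's quasi-likelihood test. In the same comparison all 5 myelin markers were lower, by a median of -0.82 on the log2 scale. Of these, 4 were past the unadjusted threshold, Mbp and Prx among them. Summed, the 5 were at 451 CPM in CHEMO STD replicates 1 and 2 (1 sample) and 276 in replicate 7. The other CHEMO STD samples had 99.1 to 138 and the CHEMO FO samples 83.9 to 151. Of the 11 leukocyte markers tested, 8 were lower, with Ptprc, Coro1a and Rac2 past that threshold. The sum of the 20 listed leukocyte markers had a median of 252 CPM in each group. Coro1a was at 56.3 CPM in CHEMO STD replicate 7 and at 2.54 to 6.83 in the rest of that group. The part of these cell types in the proteasome values was not tested.

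Psmd2 in CHEMO FO ran from 284 to 461 CPM with a median of 353, against 248 to 317 in CHEMO STD. The upper part of the CHEMO FO range lay above every CHEMO STD sample, and the lower part overlapped. The log2 fold change was 0.34 ± 0.13 (SE, p = 0.0123; exact two-sided permutation p = 0.00733), and 0.28 ± 0.11 (p = 0.0215) without replicate 18. TUMOUR STD, at 282 to 436 CPM, covered most of the range of the fish oil group, and Psmd2 in CHEMO FO differed from TUMOUR STD by 0.08 ± 0.13 (exact permutation p = 0.563).

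Psmb4, a structural subunit of the beta rings, ran from 125 to 142 CPM in CHEMO STD and from 134 to 194 in CHEMO FO, with medians of 129 and 155. Its log2 fold change was 0.25 ± 0.11 (p = 0.0300, exact permutation p = 0.0103), and 0.20 ± 0.10 (p = 0.0550) without replicate 18. Psmc4, one of the 19S ATPases, ran from 88.9 to 106 CPM in CHEMO STD and from 97.9 to 170 in CHEMO FO. It stood at 0.28 ± 0.12 (p = 0.0262, exact permutation p = 0.0193) and at 0.20 ± 0.10 (p = 0.0578) without that replicate. The groups overlapped for each gene, and both genes lost the unadjusted threshold when replicate 18 was left out.

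Among the constitutive catalytic subunits, Psmb5 was at 57.9 to 81.0 CPM in CHEMO STD and 65.6 to 107 in CHEMO FO, and replicate 18 had the lowest value of its group. The log2 fold change of Psmb5 was 0.26 ± 0.13 with all samples (exact permutation p = 0.0476) and 0.30 ± 0.13 without replicate 18, past the unadjusted threshold of the fitted test only in the latter. Psmb6 stood at 0.18 ± 0.12 and 0.21 ± 0.11 in the same fits (exact permutation p = 0.113 with all samples), and Psmb7 at 0.10 ± 0.10 and 0.07 ± 0.10 (exact permutation p = 0.253). Psme4 was the reverse. It stood at 0.34 ± 0.33 with all samples (exact permutation p = 0.831) and at -0.15 ± 0.19 without replicate 18. Psmd8, a lid subunit, went from 0.42 ± 0.25 (exact permutation p = 0.614) to 0.02 ± 0.10.

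**Figure D2:**
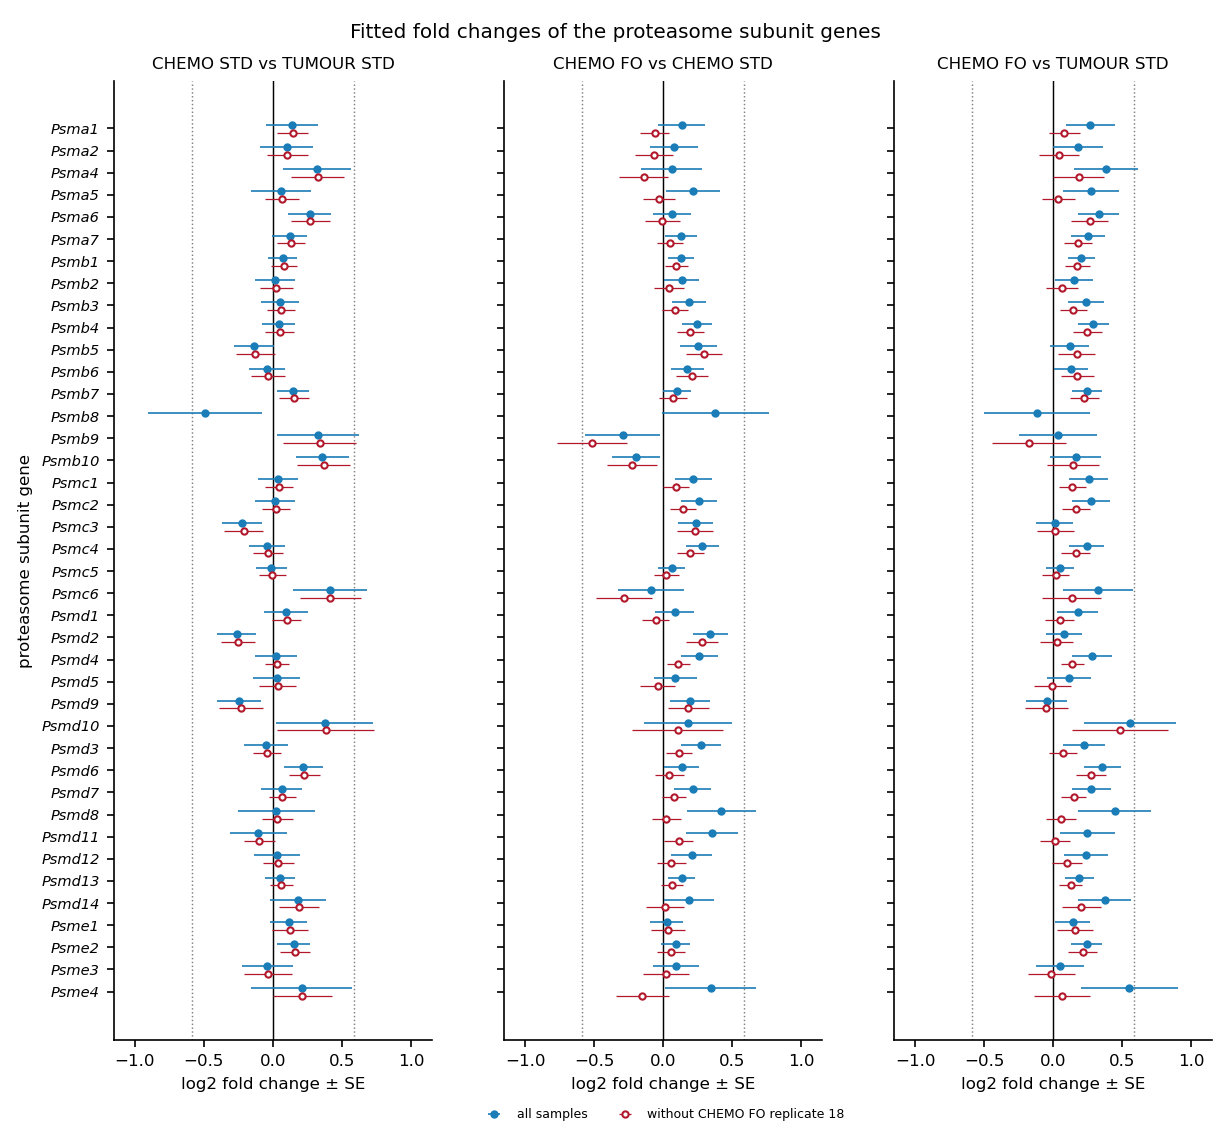
Fitted log2 fold change (horizontal axis, bars ± SE) of each tested proteasome subunit gene in the 3 comparisons, with all samples (filled blue) and without CHEMO FO replicate 18 (open red, Psmb8 not tested there). Dotted lines mark a 1.5-fold change in either direction. No point lies beyond them, and the median of the middle panel goes from 0.18 to 0.06 without that replicate.

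Chemotherapy with fish oil was also compared with the tumour alone (CHEMO FO and TUMOUR STD). This comparison shares the CHEMO FO samples with the one before and the TUMOUR STD samples with the first, so its values are not separate evidence. Here 38 of the 40 genes were higher (95%, against 50.4% of all genes) and 2 lower. The median log2 fold change of the members was 0.24 against 0.00 over all genes, and 0.14 (35 of 39 higher) without replicate 18. With voom the median was 0.11, with 34 of 40 higher. The unadjusted threshold was passed by 6 genes, all higher, against 9.04% of all genes in either direction, 3.72% higher and 5.32% lower. None reached 1.5-fold, where 3.60% of all genes passed the rule of p and fold, and the smallest adjusted p value of a member was 0.50. The 3 smooth muscle markers tested (3 past the unadjusted threshold) and the 6 tendon markers (2) were all lower in this comparison. So were all 5 myelin markers, with 3 past the threshold. Summed, these 5 were at 464 CPM in TUMOUR STD replicate 10, 102 to 145 in the rest of that group and 83.9 to 151 in CHEMO FO. The part of these cell types in the values was not tested.

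The 6 genes lay in different parts of the complex: the alpha subunits Psma6 and Psma7, the beta subunits Psmb4 and Psmb7, the lid subunit Psmd6 and the activator subunit Psme2. Psmd6 was at 107, 82.2, 81.5, 97.9 and 87.8 CPM in the TUMOUR STD samples and at 91.8 to 167, with a median of 115, in CHEMO FO. Its log2 fold change was 0.35 ± 0.13 (p = 0.0145, exact permutation p = 0.0249), and 0.27 ± 0.11 (p = 0.0212) without replicate 18. In CHEMO STD it lay in between, at 90.6 to 125 CPM with a mean of 106 ± 12.1 (SD, n = 6), and overlapped both other groups.

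Psme2, the beta subunit of the interferon-inducible 11S activator, was at 28.3, 32.6, 36.0, 32.0 and 32.1 CPM in TUMOUR STD and at 33.4 to 45.0, with a median of 37.5, in CHEMO FO. Only the TUMOUR STD sample at 36.0, replicate 10, lay inside the CHEMO FO range. The log2 fold change was 0.24 ± 0.11 (p = 0.0403, exact permutation p = 0.00544), and 0.21 ± 0.11 (p = 0.0549) without replicate 18. Its partner Psme1 was at 61.7 to 82.0 CPM in TUMOUR STD and 65.7 to 98.7 in CHEMO FO, with a log2 fold change of 0.14 ± 0.13 (exact permutation p = 0.217).

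Psmb4 stood at 0.29 ± 0.11 (exact permutation p = 0.0218) and was past the unadjusted threshold also without replicate 18, at 0.25 ± 0.10. So was Psmb7, at 0.25 ± 0.11 (exact permutation p = 0.0381) and 0.22 ± 0.10. The alpha subunits, which form the outer rings of the core, did not. Psma6 went from 0.33 ± 0.15 (exact permutation p = 0.0559) to 0.26 ± 0.13, and Psma7 from 0.25 ± 0.12 (exact permutation p = 0.0738) to 0.18 ± 0.10. With DESeq2, 12 of the 40 genes had an unadjusted p value below 0.05 in this comparison, all higher, against 9.40% of all genes. With voom 4 had, also all higher, against 9.74% of all genes, a share close to that background. None had an adjusted p value below 0.05 with DESeq2, while 11 genes of the whole table did. The largest fitted values were those of Psmd10 (gankyrin), an assembly chaperone with 4 to 30 counts a sample, at 0.55 ± 0.33 (exact permutation p = 0.0715), and of Psme4, at 0.55 ± 0.35 (exact permutation p = 0.550). Neither passed the unadjusted threshold.

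Added over the 40 genes, the level was 3462 to 3749 CPM in TUMOUR STD, with a mean of 3597 ± 113 (SD, n = 5). It was 3499 to 4062 in CHEMO STD, with a mean of 3735 ± 219 (SD, n = 6). In CHEMO FO 7 samples lay between 3662 and 4293, with a mean of 3871 ± 231 (SD, n = 7), and replicate 18 was at 7155. The ranges of the 3 groups overlapped apart from that sample.

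CHEMO FO replicate 18 was examined gene by gene against the median of the other 7 CHEMO FO samples. It was the highest of the 19 samples for 31 of the 40 genes (77.5%), against 18.6% of all genes tested. At least 1.5 times the median of the other 7 was reached by 22 genes (55.0%), against 19.6% of all genes, and the median ratio was 1.54 against 1.01. With library totals in place of TMM factors the median ratio was 1.92 against 1.26 over all genes. This sample was chosen for description after its values were seen, and a single rat gives no replicate check.

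The ratio was not even across the complex. The 8 lid subunits, which include the deubiquitinase Psmd14, all had their highest value in this sample, with ratios from 1.40 to 3.58 and a median of 1.91. The 6 alpha subunits did too, with ratios from 1.40 to 2.39 and a median of 1.98. The 19S ATPases had a median ratio of 1.59 and the base scaffold and chaperone genes one of 1.55. The structural beta subunits reached 1.24 to 1.55, all 4 highest in this sample.

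Psme4 had the largest ratio. It was at 1606 CPM in replicate 18 and at 287 to 619 in the other 7 CHEMO FO samples, a ratio of 5.04, and no TUMOUR STD or CHEMO STD sample exceeded 553. Psmd8 was at 214 CPM against 48.0 to 74.2, a ratio of 3.58, and lay between 55.2 and 67.1 in the 11 samples without fish oil. Psmd11, another lid subunit, was at 219 CPM against 81.1 to 98.4 (2.50), Psma5 at 137 against 42.7 to 61.7 (2.39) and Psma4 at 184 against 66.7 to 102 (2.37). For each of these 5 genes replicate 18 lay above every other sample.

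Among the constitutive catalytic subunits none reached 1.5 times the median. Psmb6 was at 111 CPM in replicate 18 against 109 to 157 in the other 7, a ratio of 0.78, and Psmb5 at 65.6 against 71.3 to 107, a ratio of 0.82. Under library totals the 2 ratios were 0.99 and 1.05, so their direction depends on the scaling, while both remained the smallest among the 40 genes. Psmb7 had a ratio of 1.22 and Psme1 of 0.98. The 6 genes with the TGACNNNGC letters had ratios of 0.78 (Psmb6), 0.82 (Psmb5), 1.01 (Psmd9), 1.52 (Psmb2), 1.78 (Psmd1) and 5.04 (Psme4). A link between the letters and the ratio was not tested.

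**Figure D3:**
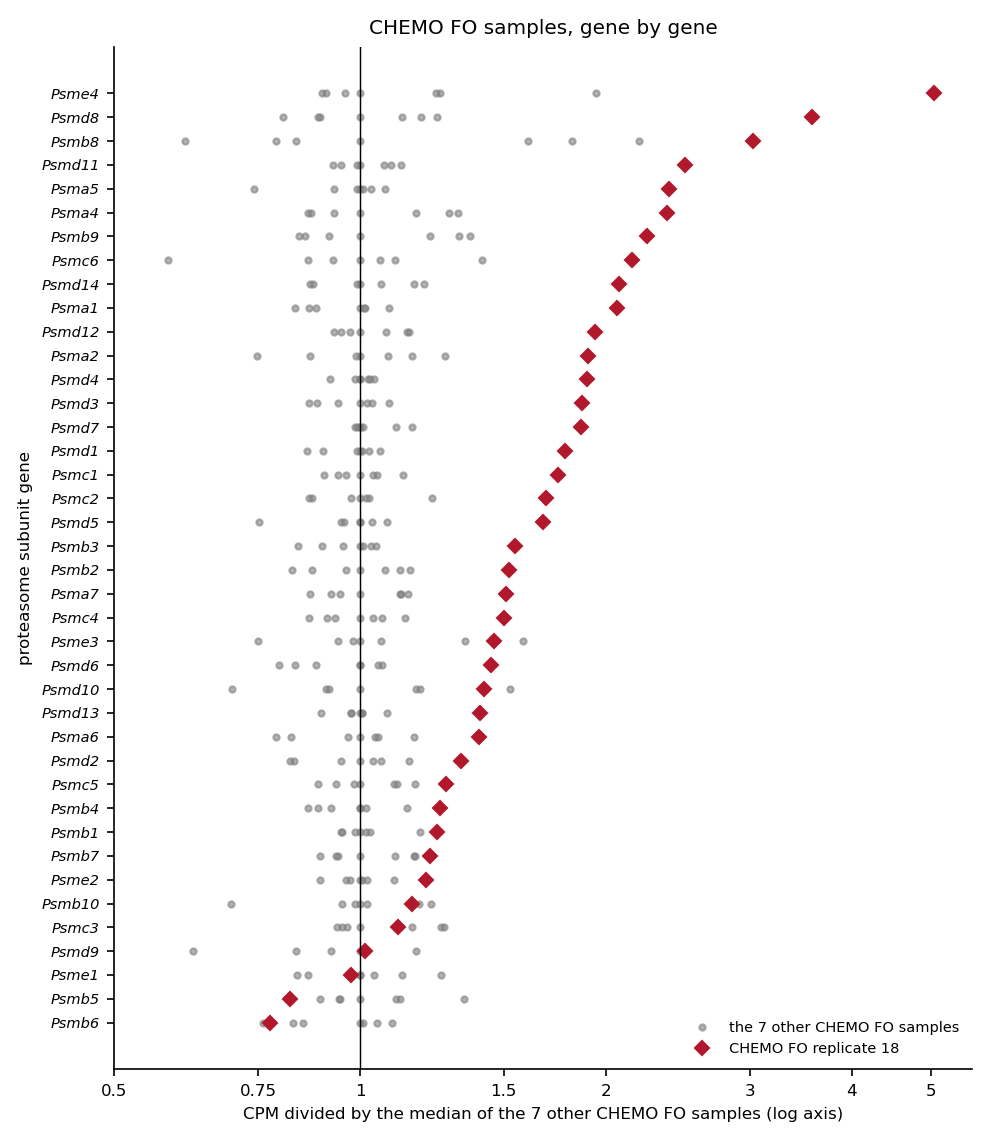
Level of each tested proteasome subunit gene in the 8 CHEMO FO samples, divided by the median of the 7 samples other than replicate 18 (log axis). Grey points are the 7 other samples and red diamonds are replicate 18, with genes ordered by the red value. Psme4 is at 5.04 and Psmd8 at 3.58, while Psmb5 and Psmb6 lie at 0.82 and 0.78.

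Other genes of the pathway also stood high in this sample. Trim63 was at 2589 CPM in replicate 18 against 194 to 415 in the other 7 (ratio 11.5), and Fbxo32 at 1865 against 171 to 650 (ratio 7.21). Among genes for ubiquitin supply and delivery, the polyubiquitin gene Ubb had a ratio of 1.53 and the shuttle Rad23b of 2.16, whereas Uba1, the main ubiquitin-activating enzyme, was at 0.70. Usp14, the deubiquitinase that docks on the cap, was at 2.13, and Nfe2l2 (NRF2) at 1.94, with Nfe2l1 (NRF1), which drives proteasome genes when proteasome activity is low, at 1.24. The dedicated assembly chaperones Psmg1 and Psmg4 were at 0.80 and 0.86, and Psmg3 at 1.75. The Psma3l row was at 2.04.

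Marker lists of other cell types also differed in this sample. All 7 muscle fibre markers were lower, with ratios from 0.41 to 0.71. All markers tested of tendon (6), smooth muscle (3) and myelin (5, at 0.54 to 0.89) were lower as well. Of the 5 adipocyte markers 4 were lower, Lep at a ratio of 0.07, Plin1 and Cidec at 0.12 and Adipoq at 0.28, and Fabp4 was at 1.18. Of the 11 leukocyte markers tested 10 were above 1, with a median ratio of 1.48 over the 11. The macrophage genes Cd163 (7.84), C1qb (3.32) and Mrc1 (3.16) were the highest, but Csf1r, also a macrophage gene, was at 0.98. Over all 20 listed leukocyte markers the summed level was 674 CPM, against 170 to 271 in the other 7. Cd163 made up 273 CPM of that sum and Mrc1 167. The pan-leukocyte gene Ptprc was at 1.22. The part of these differences in the proteasome values was not tested.

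The immunoproteasome subunits were examined apart from the constitutive ones. Their counts were small, 1 to 32 a sample for Psmb8 and 10 to 105 for Psmb9, and none of the 3 had an unadjusted p value below 0.05 in any comparison. Psmb8 was at 1.22, 2.19, 2.04, 1.13 and 1.42 CPM in TUMOUR STD, at 0.32 to 2.16 in CHEMO STD and at 0.59 to 2.91 in CHEMO FO. Its log2 fold change of -0.49 ± 0.41 (exact permutation p = 0.139) in CHEMO STD against TUMOUR STD was the lowest of the 40 genes, on the widest spread between samples of a group.

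Psmb10 was at 10.1 to 11.2 CPM in all 5 TUMOUR STD samples, and at 8.27 to 19.7 in CHEMO STD. The CHEMO STD values lay on both sides of the TUMOUR STD range, with replicates 6 and 7 at 18.2 and 19.7 and the other 4 samples at 13.2 or below. The log2 fold change was 0.36 ± 0.19 (fitted p = 0.0777, exact permutation p = 0.249). In CHEMO FO Psmb10 was at 7.92 to 13.9, or -0.20 ± 0.17 against CHEMO STD (exact permutation p = 0.477). Psmb9 was at 3.30 to 6.08 CPM in TUMOUR STD, 3.18 to 11.2 in CHEMO STD and 3.24 to 8.63 in CHEMO FO, with fitted differences of 0.33 ± 0.30 for chemotherapy (exact permutation p = 0.548) and -0.29 ± 0.27 for diet (exact permutation p = 0.387). Without replicate 18 the latter was -0.52 ± 0.25, just short of the unadjusted threshold.

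CHEMO STD replicate 7 was the highest of the 19 samples for Psmb9 (11.2 CPM), Psmb10 (19.7) and Psme1 (102). The same sample had a leukocyte marker sum of 471 CPM against 206 to 379 in the other CHEMO STD samples, with Ptprc at 65.9 CPM, whereas it was at 10.1 in the lowest of that group. It also had Tap1, the peptide transporter that works with the immunoproteasome, at 12.6 CPM, above the other 18 samples. The part of leukocyte RNA in these values was not tested.

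The log2 ratio of each immunoproteasome subunit to its constitutive counterpart, which carries the lengths of both RNAs and is read only between samples, overlapped across the groups for all 3 pairs. For Psmb9 over Psmb6 the means were -4.60 ± 0.45 (SD, n = 5) in TUMOUR STD, -4.36 ± 0.49 (n = 6) in CHEMO STD and -4.78 ± 0.49 (n = 8) in CHEMO FO. For Psmb10 over Psmb7 they were -3.57 ± 0.19, -3.43 ± 0.45 and -3.67 ± 0.24, and for Psmb8 over Psmb5 -5.33 ± 0.46, -5.73 ± 0.55 and -5.69 ± 0.77. The highest ratio of CHEMO FO was in replicate 18 for Psmb8 and Psmb9.

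**Figure D4:**
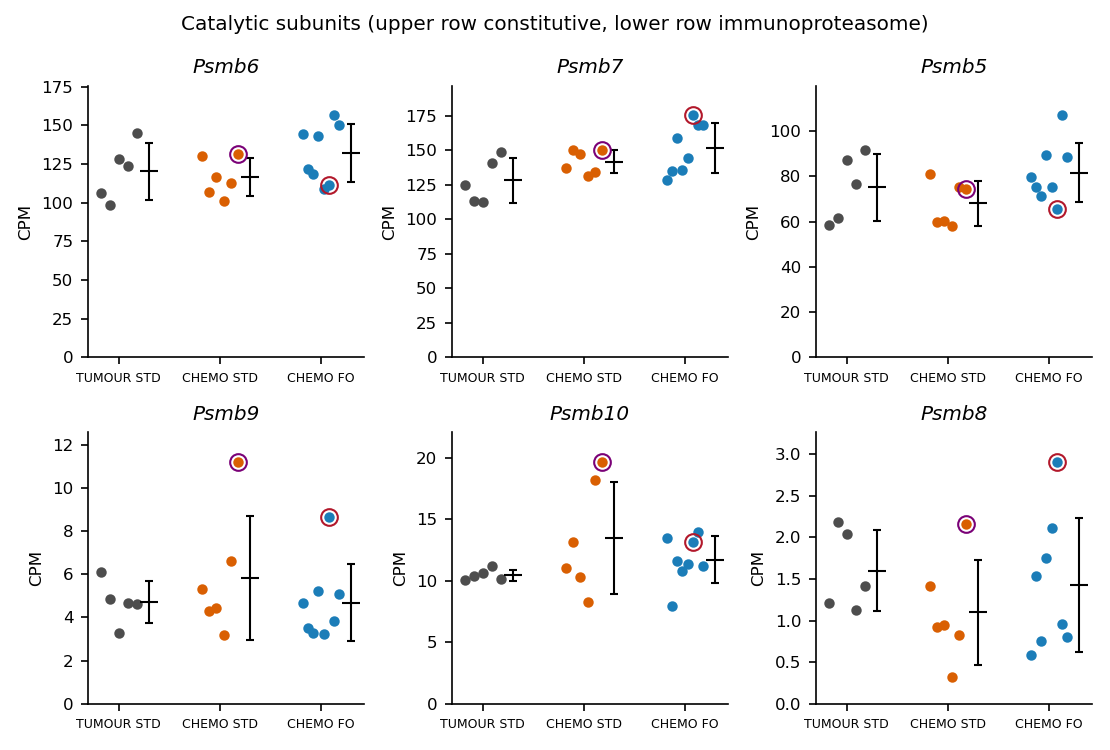
Level in CPM (vertical axes from 0) of the constitutive catalytic subunits (upper row) and of the immunoproteasome subunits that replace them (lower row) by group. Points are samples, black bars are the mean ± SD, and circles mark CHEMO STD replicate 7 and CHEMO FO replicate 18. Replicate 7 is the highest of all samples for Psmb9 (11.2) and Psmb10 (19.7), and replicate 18 the lowest of its group for Psmb5 (65.6).

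Subunits of 1 complex varied to different degrees between rats of a group. Leaving out replicate 18, the pooled SD of log2 CPM within groups ran from 0.06 to 0.55 with a median of 0.17. The lid subunit Psmd13 and the ubiquitin receptor Psmd4 were the least variable, at 0.06 and 0.08, and Psmd13 stayed between 76.1 and 92.0 CPM in 18 samples. The most variable were Psmb8 (0.55), Psmd10 (0.47), Psmc6 (0.43), Psmb9 (0.42) and Psme4 (0.39). Counts were low for Psmb8, Psmd10 and Psmb9, but Psmc6 and Psme4 were well counted.

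Psmc6 and Psmd2, both parts of the 19S base, differed in their ratio between samples, although CHEMO FO replicate 18 was the highest sample for both. The log2 ratio of Psmc6 to Psmd2 ran from -3.45 in TUMOUR STD replicate 10 and -3.17 in CHEMO FO replicate 16 to -1.22 in CHEMO STD replicate 5. Those 2 lowest samples were also the 2 with the most keratinocyte marker RNA. The groups overlapped, with means of -2.31 ± 0.76 (SD, n = 5) in TUMOUR STD, -1.64 ± 0.51 (n = 6) in CHEMO STD and -2.12 ± 0.49 (n = 8) in CHEMO FO.

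Across the 19 samples this ratio was lower where small nucleolar RNA rows took a larger share of the counts, a share that ran from 0.106% to 0.270%. Pearson's r was -0.87 and Spearman's rho -0.88, given as a description with no p value, since the pair was chosen after its values were seen. Without the 2 samples farthest from the median share r was -0.78, and within groups it was -0.94 in CHEMO STD (n = 6) and -0.63 in CHEMO FO (n = 8), with TUMOUR STD too small at 5 samples. Both measures come from the same libraries, and the RNA quality of single samples is not given in the sources used here. Its part in the ratio was not tested.

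**Figure D5:**
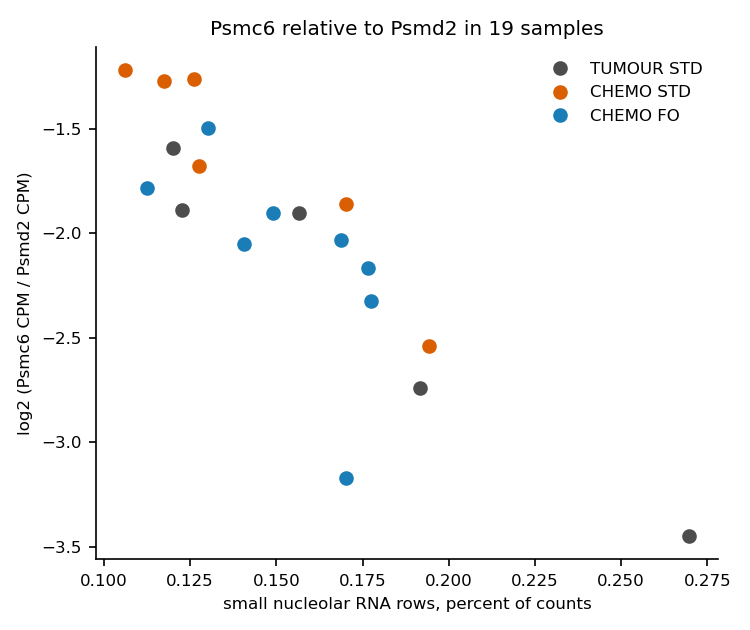
Log2 ratio of Psmc6 to Psmd2 (vertical axis) against the percent of counts on small nucleolar RNA rows (horizontal axis) in the 19 samples, coloured by group. The ratio falls from about the level of CHEMO STD replicate 5 (-1.22) at the left to TUMOUR STD replicate 10 (-3.45) at the right, with all 3 groups mixed along the way.

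Other lists of the ubiquitin and proteasome pathway were compared in the same fits. Among 4 tested assembly chaperones outside the rule, Psmg1 passed the unadjusted threshold in CHEMO FO against TUMOUR STD, at 0.30 ± 0.13. Pomp, which matures the core, was not tested, with at most 0.31 CPM. The sources used here do not say how its reads were assigned, so this value alone does not show that Pomp is absent from muscle. Among 7 tested proteasome-bound proteins Uchl5, a deubiquitinase of the cap, passed in CHEMO STD against TUMOUR STD (0.63 ± 0.28), and Adrm1, its docking site and a ubiquitin receptor, in CHEMO FO against CHEMO STD (0.39 ± 0.15, and 0.30 ± 0.14, without replicate 18).

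Among the genes for ubiquitin supply, shuttling and unfolding, the shuttle Ubqln2 passed in CHEMO STD against TUMOUR STD, at -0.64 ± 0.24. In CHEMO FO against CHEMO STD the shuttle Ubqln1 passed at 0.25 ± 0.10, and Ubb at 0.27 ± 0.13 was just under the threshold. Without replicate 18 these stood at 0.18 ± 0.08, still past it, and at 0.17 ± 0.11, no longer past it. No gene of these lists had an adjusted p value below 0.05.

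Of the 6 muscle ubiquitin ligases, Trim63 and Fbxo32 passed in both comparisons of CHEMO FO. Trim63 stood at 1.25 ± 0.49 against CHEMO STD and at 0.14 ± 0.14 without replicate 18, and Fbxo32 at 0.92 ± 0.43 and 0.30 ± 0.29, neither past the threshold without it. Against TUMOUR STD, Trim63 went from 1.26 ± 0.53 to 0.16 ± 0.15, whereas Fbxo32 went from 1.27 ± 0.47 to 0.65 ± 0.31 and was past the threshold in both fits. The 4 proteasome gene regulators, among them Nfe2l1 and Nfe2l2, and the 11 tested genes of antigen processing and interferon response, among them Tap1, held no gene below the unadjusted threshold in any comparison with all samples. Nfe2l1 was at 312 to 451 CPM in TUMOUR STD, 314 to 468 in CHEMO STD and 359 to 486 in CHEMO FO, and the groups overlapped throughout. Nfe2l2 stood at -0.17, 0.25 and 0.09 on the log2 scale in CHEMO STD against TUMOUR STD, CHEMO FO against CHEMO STD and CHEMO FO against TUMOUR STD. Tap1 stood at -0.22 ± 0.27, -0.25 ± 0.24 and -0.47 ± 0.25, and without replicate 18 the last was -0.62 ± 0.24, past the unadjusted threshold. Gbp2, an interferon-induced GTPase of the same list, was past it too without replicate 18, at -0.39 ± 0.17 in CHEMO FO against CHEMO STD, as was the ligase Stub1, at 0.26 ± 0.12.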

How the data were processed

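Total RNA from 20 gastrocnemius libraries was depleted of ribosomal RNA and sequenced from a stranded kit. Per the submitters' processing notes, the authors used CASAVA 1.9, Trim Galore 0.4.1, FastQC 0.11.4, TopHat2 2.0.10 and Bowtie2, and the deposited values are unnormalised counts per gene. The sources used here do not state whether strand was used in counting or how reads shared with near-identical copies were treated, and members with pseudogene copies are uncertain for that reason. The study stated RNA integrity above a fixed limit without values per sample.

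The 388 rows without a gene name (0.102% to 0.272% of counts) were left out. Low genes were removed with filterByExpr (count minimum 10, total minimum 15). Libraries were scaled by TMM and 1 quasi-likelihood model held all 3 groups (R 4.3.3, edgeR 4.0.16, limma 3.58.1), with CHEMO STD replicates 1 and 2 summed. Calls used the study's rule of an unadjusted p value below 0.05 with a fold of at least 1.5, and Benjamini-Hochberg values were taken over all 11716 genes. The study used DESeq2, here an alternative (1.42.0). Single members were also tested by exact two-sided permutation of log2 CPM (prior count 2), 57 tests on 19 genes, unadjusted. Named members were those with an unadjusted p value below 0.05, the 2 highest and 2 lowest fold changes of each comparison, the catalytic subunits, Psme1 and Psme2. Those singled out for CHEMO FO replicate 18 or for their spread were chosen after their values were seen. Where a symbol was on several rows (Rps27a), the row with most counts was used. Some genes of the pathway lists are not reported here. Fits were tested on simulated data, and figures were drawn in Python 3.11.15 with matplotlib 3.10.9. Members and lists were chosen with earlier results of these data known. Other settings are given in the closing section. Counting error alone is covered by the counts, and deeper samples carry less of it.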

Additional observations from a re-analysis of the deposited data

Results flagged for a closer look

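Each of the 19 named members and the summed level were examined in the 3 groups for a sample far from the others of its group, 60 groups in all. A sample stood apart in 7 of them, and each time it was CHEMO FO replicate 18, above the other 7. A sample was taken as apart where its gap to the nearest other sample, divided by the range of the group, was above the critical value of Dixon's test, a level set so that chance gives about 1 in 20 groups. No chance rate was computed from these data, and the 7 are not independent since they share 1 library. Nor were all the genes chosen apart from that library. Psmd8 and Psme4 were named for high fold changes that fell without it. Psma7 and Psmc4 were named for p values that lost the threshold without it. The level of 1 in 20 therefore does not hold for this list. The values were 1606 CPM for Psme4, 214 for Psmd8, 209 for Psma7, 170 for Psmc4, 167 for Psmd6 and 8.63 for Psmb9, and 7155 CPM for the sum of the 40 tested members.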

How the results depend on the processing

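No member passed the rule of p and fold in any comparison under any setting. The number with an unadjusted p value below 0.05 depended on the settings. The main fit gave 0, 3 and 6 in CHEMO STD against TUMOUR STD, CHEMO FO against CHEMO STD and CHEMO FO against TUMOUR STD. The share of all genes, given in brackets, also moved, but not always with the number. In CHEMO FO against TUMOUR STD it was 9.04% in the main fit and 9.40% with DESeq2, where the number went from 6 to 12. For the first comparison the number was 1 with voom (9.03%) and 2 without CHEMO STD replicates 1 and 2 (11.6%). For the next it was 1 with library totals (4.03%), 7 with voom (11.4%), 6 with all 20 libraries kept apart (5.14%) and 5 without CHEMO STD replicates 1 and 2 (6.76%). For the last it was 2 with library totals (8.64%), 12 with DESeq2 (9.40%), 3 with only the 2 groups compared (7.24%), and 2 without TUMOUR STD replicate 10, CHEMO STD replicate 7 and CHEMO FO replicate 18 (6.11%), a setting chosen after seeing the data. Leaving out single samples gave 0 to 2 (2.71% to 11.6% of all genes), 1 to 5 (3.34% to 6.76%) and 1 to 11 (5.67% to 11.8%). For the first comparison, leaving out TUMOUR STD replicate 8 or 11, CHEMO STD replicate 4 or 5, or CHEMO FO replicate 18 gave 1. For the next, leaving out CHEMO STD replicate 3 gave 1 and CHEMO FO replicate 13, 16 or 20 gave 5. For the last, leaving out TUMOUR STD replicate 9 gave 1, CHEMO FO replicate 18 or 19 gave 3, and CHEMO FO replicate 14 or 16 gave 11. The median log2 fold change of the members ran over these samples from 0.03 to 0.08, from 0.06 to 0.20 and from 0.14 to 0.27, lowest in the last 2 without CHEMO FO replicate 18. With voom it was 0.05, 0.06 and 0.11, and without the 3 libraries named above 0.05, 0.07 and 0.11. For single named members, 1505 values kept their side of the threshold, 57 lost it and 19 gained it, and the cause was not tested. No paired analysis was made, since the groups held different rats and the labels name no pairs. Depth limits Psmb8, Psmd10 and Psmb9 most.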
